A study of Homo sapiens with 10 samples.

Results

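Androgen receptor target genes were examined here through acetylated histone H3 in a pair of human prostate cancer cell lines. The members were TMPRSS2, FKBP5, SLC45A3, PMEPA1, NDRG1, ACP3 and CAMKK2, 7 of 20033 protein-coding genes, and were chosen by name. All peaks over each gene body and 50 kb on each side were taken, and peaks at promoters were described apart from distal ones. C4-2B, the parental line, is a prostate adenocarcinoma line that grows after castration, and C4-2BER is the NE-like (neuroendocrine-like) line that the study derived from it by continuous exposure to enzalutamide, an inhibitor of the androgen receptor. Both were grown in RPMI with fetal bovine serum and fixed with DSG and formaldehyde. Per the study's methods C4-2BER was also kept in enzalutamide throughout, so the line and the presence of the inhibitor cannot be told apart, and the comparison is between a single parental line and a single derived line. H3K27ac and H3K18ac (histone H3 acetylated at lysine 27 or lysine 18) were each profiled by ChIP-Seq in 2 libraries per line, 8 libraries in all, with 1 input library per line. The authors merged the libraries of each mark and line before macs2 called peaks, so there is 1 peak list per mark and line, 4 in all. Each value therefore has no replicate error, no test between the lines could be made, and all differences are descriptions of these merged libraries. Depth is unknown because no read counts are given in the lists, and acetylation too weak for the peak caller may remain where no peak is listed. Peaks called absent below are absent from a list in this sense.

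The androgen receptor is a hormone-activated transcription factor. It binds androgen response elements, which are paired half-sites in opposite orientation with a short spacer, and it binds mostly at enhancers in introns or far from the gene, where forkhead factors such as FOXA1 open the chromatin. In luminal prostate cells it drives genes of secretion and metabolism, and its active enhancers and promoters carry H3K27ac and H3K18ac, which are written by the acetyltransferases p300 and CBP. FKBP5, which encodes a co-chaperone of steroid receptor complexes, is a classical target with hormone-responsive enhancers in its introns. ACP3 encodes prostatic acid phosphatase, a secreted product of luminal cells.

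Response elements under peaks are shown first, since the receptor acts through them. The motif searched was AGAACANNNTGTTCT, which reads the same on both strands, with at most 1 mismatch in its 12 fixed letters. Within the 7 loci, 3 matches lay under a peak region, 2 of them in intron 5 of FKBP5. They are shown as the plus strand of GRCh38 with the match in capitals and 40 bases of context on each side. The FKBP5 exact match lies at chr6:35602082-35602096, 86.8 kb downstream of the transcription start site (TSS), and the sequence runs from 35602042 to 35602136. The FKBP5 match with 1 mismatch lies at chr6:35613610-35613624, 75.3 kb downstream of the TSS, and the sequence runs from 35613570 to 35613664.
FKBP5 intron 5 exact match: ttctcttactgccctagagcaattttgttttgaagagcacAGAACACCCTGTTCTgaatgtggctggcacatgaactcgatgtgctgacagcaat
FKBP5 intron 5 match with 1 mismatch: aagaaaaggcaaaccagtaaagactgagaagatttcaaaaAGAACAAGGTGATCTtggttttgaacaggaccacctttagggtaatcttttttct

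H3K27ac over both matches was found in C4-2B only. The exact match lay in a C4-2B peak of 5.78-fold enrichment, and in no peak of C4-2BER. The other match lay in a C4-2B peak of 4.61-fold enrichment and again in none of C4-2BER. For H3K18ac, the exact match lay in no peak of either line, and the other match lay in peaks of both, at 2.05-fold in C4-2BER and 3.45-fold in C4-2B. Fold enrichment is the macs2 value of a peak over its background. It is taken here as a mean over the length of a broad peak, but the settings and the use of the input are not given in the sources used here, so folds of peaks of very different width are compared with that limit.

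Promoter sequences are shown for the members with the lowest and the highest H3K27ac ratio between the lines, FKBP5 and ACP3. Each is the 250 bases before the start in the RefSeq promoter table (GRCh38.p14), written 5′ to 3′ with CpG in capitals. The FKBP5 sequence is chr6:35688916-35689165 on the minus strand, with 29 CpG and 74.8% GC. The ACP3 sequence is chr3:132317157-132317406 on the plus strand, with 2 CpG and 42% GC. Over all 35116 promoters of that table the medians were 11 CpG and 58.0% GC.
FKBP5 promoter: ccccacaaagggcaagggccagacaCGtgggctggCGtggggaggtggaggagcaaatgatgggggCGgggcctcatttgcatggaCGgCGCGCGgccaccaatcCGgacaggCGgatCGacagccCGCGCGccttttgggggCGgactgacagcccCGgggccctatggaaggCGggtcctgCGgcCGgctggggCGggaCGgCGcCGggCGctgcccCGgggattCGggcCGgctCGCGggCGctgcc
ACP3 promoter: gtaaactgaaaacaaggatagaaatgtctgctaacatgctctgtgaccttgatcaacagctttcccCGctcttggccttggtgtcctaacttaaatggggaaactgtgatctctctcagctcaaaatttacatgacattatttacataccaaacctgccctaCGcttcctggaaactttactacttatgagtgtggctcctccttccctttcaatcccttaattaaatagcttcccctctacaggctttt

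For H3K27ac, 94 of the 72971 peaks of C4-2BER lay in the 7 loci, as did 126 of the 68034 of C4-2B. For H3K18ac, the corresponding numbers were 166 of 197948 and 198 of 198451. H3K27ac peaks covered 294.4 kb of the loci in C4-2BER and 361.8 kb in C4-2B, although the whole C4-2BER list covered more of the genome (144.8 Mb against 117.1 Mb). The difference in cover rested mainly on PMEPA1, without which it was 267 kb in C4-2BER and 278.6 kb in C4-2B. The difference in peak number rested mainly on FKBP5. Without FKBP5, C4-2BER had 84 H3K27ac peaks at the other loci and C4-2B had 95. Of the H3K27ac peaks in the loci, 15 in C4-2BER and 18 in C4-2B touched a promoter of the member itself, 11 and 16 touched a promoter of another gene, and 68 and 92 were distal.

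**Figure D1:**
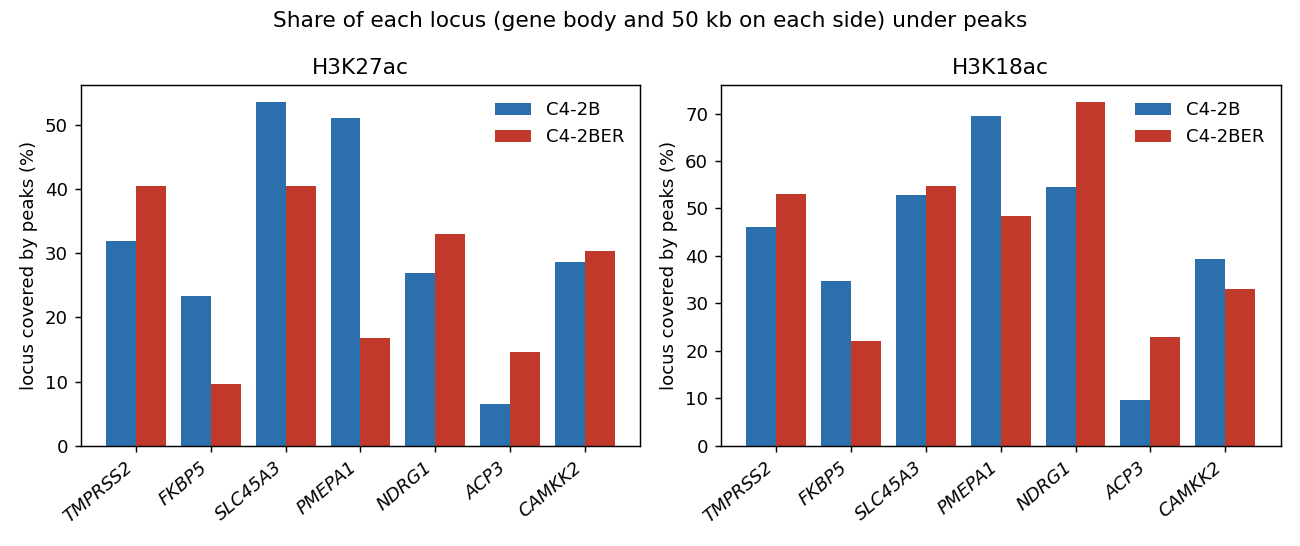
Share of each locus (gene body and 50 kb on each side) covered by peaks, in percent, for H3K27ac (left) and H3K18ac (right), with 1 bar per merged peak list. At PMEPA1 the H3K27ac share was 51.0% in C4-2B and 16.8% in C4-2BER, at FKBP5 23.4% and 9.7%, and at ACP3 6.49% and 14.6%.

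The first comparison was of promoters. Each gene was given the fold enrichment of its strongest peak touching the window from 2000 bp before to 500 bp after any annotated TSS. A promoter was counted as decreased if it had a peak in C4-2B only or was at least 2-fold lower in C4-2BER, and as increased in the mirrored case. Since the strongest peak stands for a gene, weaker starts of the same gene could change unseen and are given with the peak widths. All 7 members had promoter peaks of both marks in both lines. None of the 7 was decreased or increased in H3K27ac, where 10.8% of protein-coding promoters with a peak were decreased and 4.56% were increased. None of the 7 was decreased or increased in H3K18ac either, beside 5.9% decreased and 2.15% increased over all genes.

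The H3K27ac promoter of TMPRSS2, a serine protease of luminal cells whose promoter drives ERG in prostate cancer fusions, was 20.03-fold enriched in C4-2BER and 21.5-fold in C4-2B. That of FKBP5 was 13.3-fold and 25.2-fold, a log2 ratio of −0.93 and the lowest of the 7. That of SLC45A3, which encodes the membrane transporter prostein, was 6.66-fold and 12.1-fold, a log2 ratio of −0.86. The FKBP5 and SLC45A3 promoters came close to the 2-fold limit, with ratios of 0.526 and 0.551. PMEPA1, which encodes a membrane protein that dampens TGF-β signalling, was 12.8-fold enriched in C4-2BER and 15.8-fold in C4-2B. NDRG1, a gene of stress and differentiation responses, was 11.3-fold and 14.99-fold, but the first value came from an internal start. At its canonical TSS the values were 8.02-fold and 14.99-fold, a log2 ratio of −0.90, near that of FKBP5 and SLC45A3. CAMKK2, a kinase upstream of AMP-activated kinase, was 14.9-fold and 22.9-fold. ACP3 alone had the higher H3K27ac value in C4-2BER on this scale, 11.9-fold against 10.96-fold, a log2 ratio of 0.11.

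The members' order changed between the lines. In C4-2B, FKBP5 was the highest of the 7 and ACP3 the lowest. In C4-2BER, TMPRSS2 was the highest and SLC45A3 the lowest, and FKBP5 came after CAMKK2. Neighbours in these orders cannot be separated from each other, since the lists carry no spread. The members' median log2 ratio for H3K27ac was −0.41 and that over the 14304 protein-coding genes with a promoter peak in both lines was −0.51. Of those genes, 87.8% had the lower value in C4-2BER, so the lower values of 6 of 7 members were shared with most promoters. Against all genes, FKBP5 and SLC45A3 stood low, with 11.7% and 15.7% of genes below them, and TMPRSS2 and ACP3 stood high, with 83.6% and 91.1% of genes below. Centring on promoters of like GC content, which brought the median of all genes to 0, left FKBP5 at −0.40, SLC45A3 at −0.33 and CAMKK2 at −0.19. It turned TMPRSS2 to 0.41, PMEPA1 to 0.15 and NDRG1 to 0.12, so 3 of the 7 were then lower in C4-2BER.

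H3K18ac promoter values ran from 4.32-fold to 9.08-fold in C4-2BER and from 4.65-fold to 11.3-fold in C4-2B. ACP3 was 6.75-fold enriched in C4-2BER and 4.65-fold in C4-2B, a log2 ratio of 0.54, and 99% of the 16702 genes with a promoter peak in both lines had a lower ratio. TMPRSS2 was 9.08-fold and 8.85-fold, a log2 ratio of 0.04. FKBP5 was 6.47-fold and 8.72-fold, and SLC45A3 was 4.32-fold and 6.41-fold. The other 3 members had log2 ratios from −0.48 to −0.21, and the −0.21 of NDRG1 turned to 0.14 when centred by GC content. The median log2 ratio of the members was −0.43, against −0.33 over all genes.

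**Figure D2:**
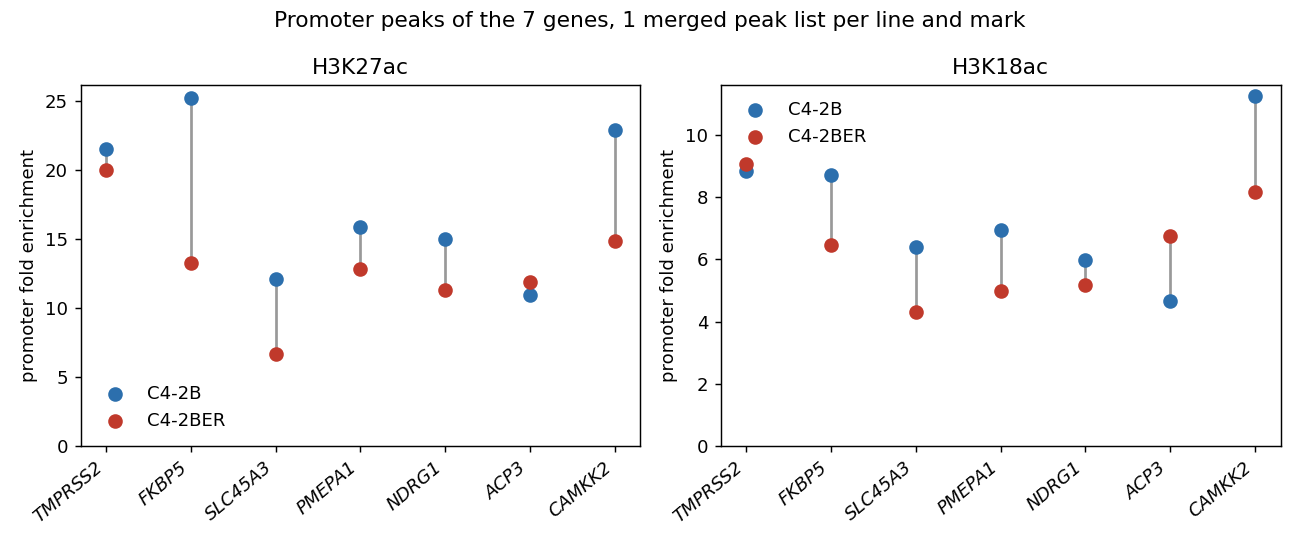
Promoter fold enrichment (vertical axis, from 0) of the 7 genes in C4-2B and C4-2BER for H3K27ac (left) and H3K18ac (right), with 1 point per merged peak list and no error bars. FKBP5 has the widest gap for H3K27ac (13.3 against 25.2), and ACP3 is higher in C4-2BER in both panels.

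The H3K27ac peak over the canonical TSS differed in width between the lines at several members. A broad peak of either line could stand as separate peaks in the other. At PMEPA1 the H3K27ac peak over the canonical TSS was 16.4 kb wide in C4-2B and 4.62 kb in C4-2BER. At SLC45A3 a single peak of 25.5 kb covered the whole gene in C4-2B at 12.1-fold. In C4-2BER it was replaced by a peak of 6.16 kb over the TSS at 6.66-fold and a peak of 15.7 kb over the downstream part of the gene at 4.32-fold. Taken as a merged region, this stretch was 4.98-fold enriched in C4-2BER and 12.1-fold in C4-2B, a log2 ratio of −1.28 that passed the 2-fold limit. An internal start of PMEPA1, chr20:57683859-57697264, was 2.93-fold enriched in C4-2BER and 6.19-fold in C4-2B, also past the limit. Regions at further starts of NDRG1 (2.90-fold) and CAMKK2 (2.68-fold) had a peak in C4-2B only, and another of NDRG1 (2.61-fold) in C4-2BER only. NDRG1 went the other way, from 5.77 kb in C4-2B to 14.3 kb in C4-2BER, with the fold enrichment over the canonical TSS at 14.99 and 8.02. In C4-2B a separate peak of 4.9 kb at 5.60-fold lay within the same stretch, which as a merged region was 10.7-fold enriched in C4-2B and 8.02-fold in C4-2BER. Its promoter value in C4-2BER came from another annotated start 43.3 to 55.4 kb downstream, where the peak was 11.3-fold enriched, beside 8.67-fold in C4-2B. The peaks over the TSS of TMPRSS2 were 14.5 kb wide in C4-2BER and 13.6 kb in C4-2B. For H3K18ac the peaks over SLC45A3 were equally broad in both lines, at 25.8 kb each, and those over PMEPA1 were 14.7 kb in C4-2BER and 14.0 kb in C4-2B.

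The second comparison was of distal regions, which serve as candidates for enhancers. Overlapping peaks of both lines were merged into regions, and a region was distal if no such promoter window, of protein-coding or lncRNA genes, was touched. The 7 loci held 102 distal H3K27ac regions. Of these, 41 were decreased in C4-2BER (40.2%) and 19 were increased (18.6%). Over all distal H3K27ac regions within 50 kb of a protein-coding gene, 25.4% were decreased and 36.2% were increased. With peaks of a −log10 q of at least 5 only, 15 of 55 regions were decreased and 16 increased. No share over all genes is given under this filter, so these counts have no background beside them. Of 148 distal H3K18ac regions, 37 were decreased (25.0%) and 27 were increased (18.2%), beside 25.4% decreased and 28.0% increased over all genes. Most changed H3K27ac regions were present in 1 line only, 39 of the 41 decreased and 17 of the 19 increased. Their median fold enrichment was low, at 2.72 and 2.42. The same held over all distal H3K27ac regions within 50 kb of a protein-coding gene. There 12370 of 13227 decreased and 18126 of 18872 increased regions were present in 1 line only, at medians of 2.58 and 2.5.

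The pooled counts hid opposite changes at single genes. FKBP5 gave 19 of the 41 decreased H3K27ac regions. Without it, 28.9% of the other 76 regions were decreased, near the 25.4% over all genes. The increased share was then 23.7%, still below the 36.2% over all genes. ACP3 gave 9 of the 19 increased regions, and without it 11.1% of the other 90 were increased. For H3K18ac, FKBP5 gave 22 of 37 decreased regions and ACP3 14 of 27 increased ones. Without FKBP5, 14.6% of the H3K18ac regions were decreased and 23.3% increased, so the direction of the pooled H3K18ac counts turned. Without ACP3, 30.3% were decreased and 10.7% increased.

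**Figure D3:**
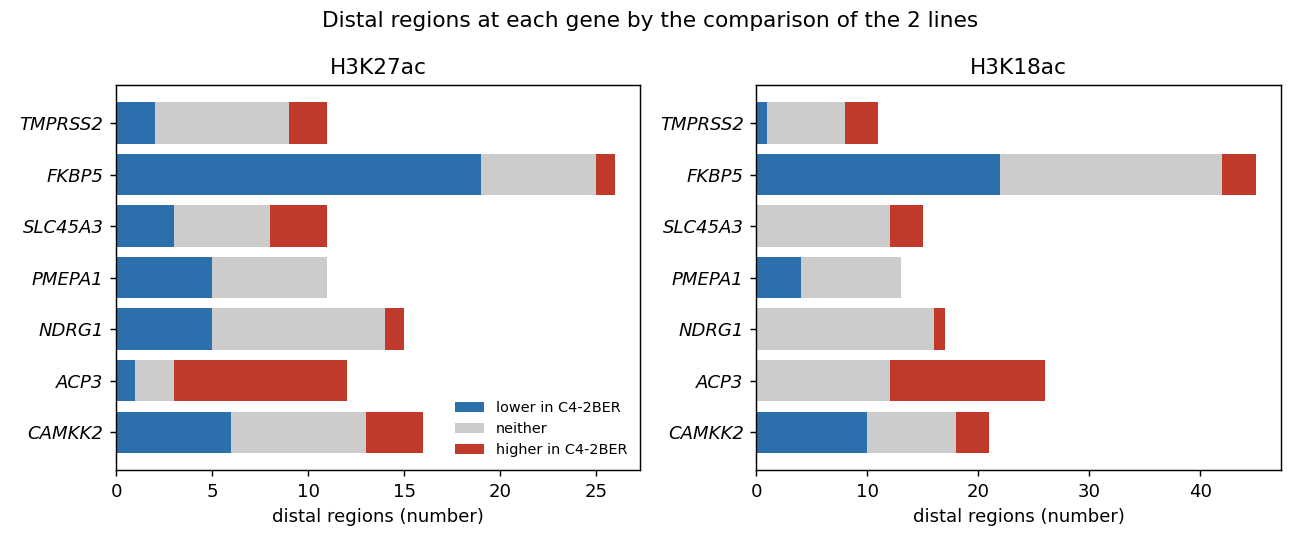
Number of distal regions at each gene (horizontal axis) that were lower in C4-2BER (blue), in neither direction (grey) or higher in C4-2BER (red), for H3K27ac (left) and H3K18ac (right). Lower and higher mean a peak in 1 line only or a ratio of at least 2. FKBP5 has 19 lower of 26 and ACP3 has 9 higher of 12 H3K27ac regions.

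FKBP5 (ENSG00000096060, chr6:35573585-35728583, minus strand) had few of its intronic H3K27ac peaks in C4-2BER, with 3 distal peaks in the gene body against 22 in C4-2B. Of 26 distal H3K27ac regions, 19 were decreased and 1 was increased (4 of 9 and none with a −log10 q of at least 5), and all 19 lay in the gene body, where there were 22 distal regions. Each of the 19 was absent from the C4-2BER list. Their C4-2B values ran from 2.26 to 8.58 with a median of 2.94, and their widths from 0.24 to 4.2 kb. Distal H3K27ac peaks at this locus covered 34.6 kb in C4-2B and 5.9 kb in C4-2BER. For H3K18ac the cover was 48.7 kb and 21.8 kb, and 22 of 45 distal regions were decreased and 3 were increased.

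The highest of the absent FKBP5 regions, chr6:35610076-35610858 in intron 5, was 8.58-fold enriched for H3K27ac in C4-2B and had no peak in C4-2BER. It was also absent in H3K18ac, with 5.67-fold in C4-2B and no peak in C4-2BER. The regions at chr6:35588186-35590846 in intron 7 and chr6:35606244-35608743 in intron 5 were likewise absent in both marks, with H3K27ac of 4.40-fold and 3.22-fold and H3K18ac of 3.27-fold and 3.14-fold in C4-2B. In all, 8 of the 19 absent H3K27ac regions overlapped most with an H3K18ac region that was decreased, 10 with one that was not called and 1 with one that was increased.

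Some FKBP5 regions were kept. The highest, at chr6:35753953-35755529 and 65 to 66.6 kb upstream of the TSS, was 9.01-fold enriched for H3K27ac in C4-2BER and 8.25-fold in C4-2B. In intron 5, the region chr6:35600266-35605206 that holds the exact response element printed above had a value of 7.36-fold in C4-2BER and 5.78-fold in C4-2B. The peak behind it was 0.78 kb wide in C4-2BER and 4.94 kb in C4-2B, and the C4-2BER peak, chr6:35603564-35604341, did not reach the element. At the far upstream start of FKBP5, the promoter peak was 12.8-fold enriched over 12.2 kb in C4-2BER and 17.6-fold over 18.6 kb in C4-2B. Around the locus, from 50 kb to 1 Mb outside the gene body, 15.3% of 144 H3K27ac regions were decreased and 36.1% were increased, whereas 73.1% of the distal regions of FKBP5 were decreased.

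**Figure D4:**
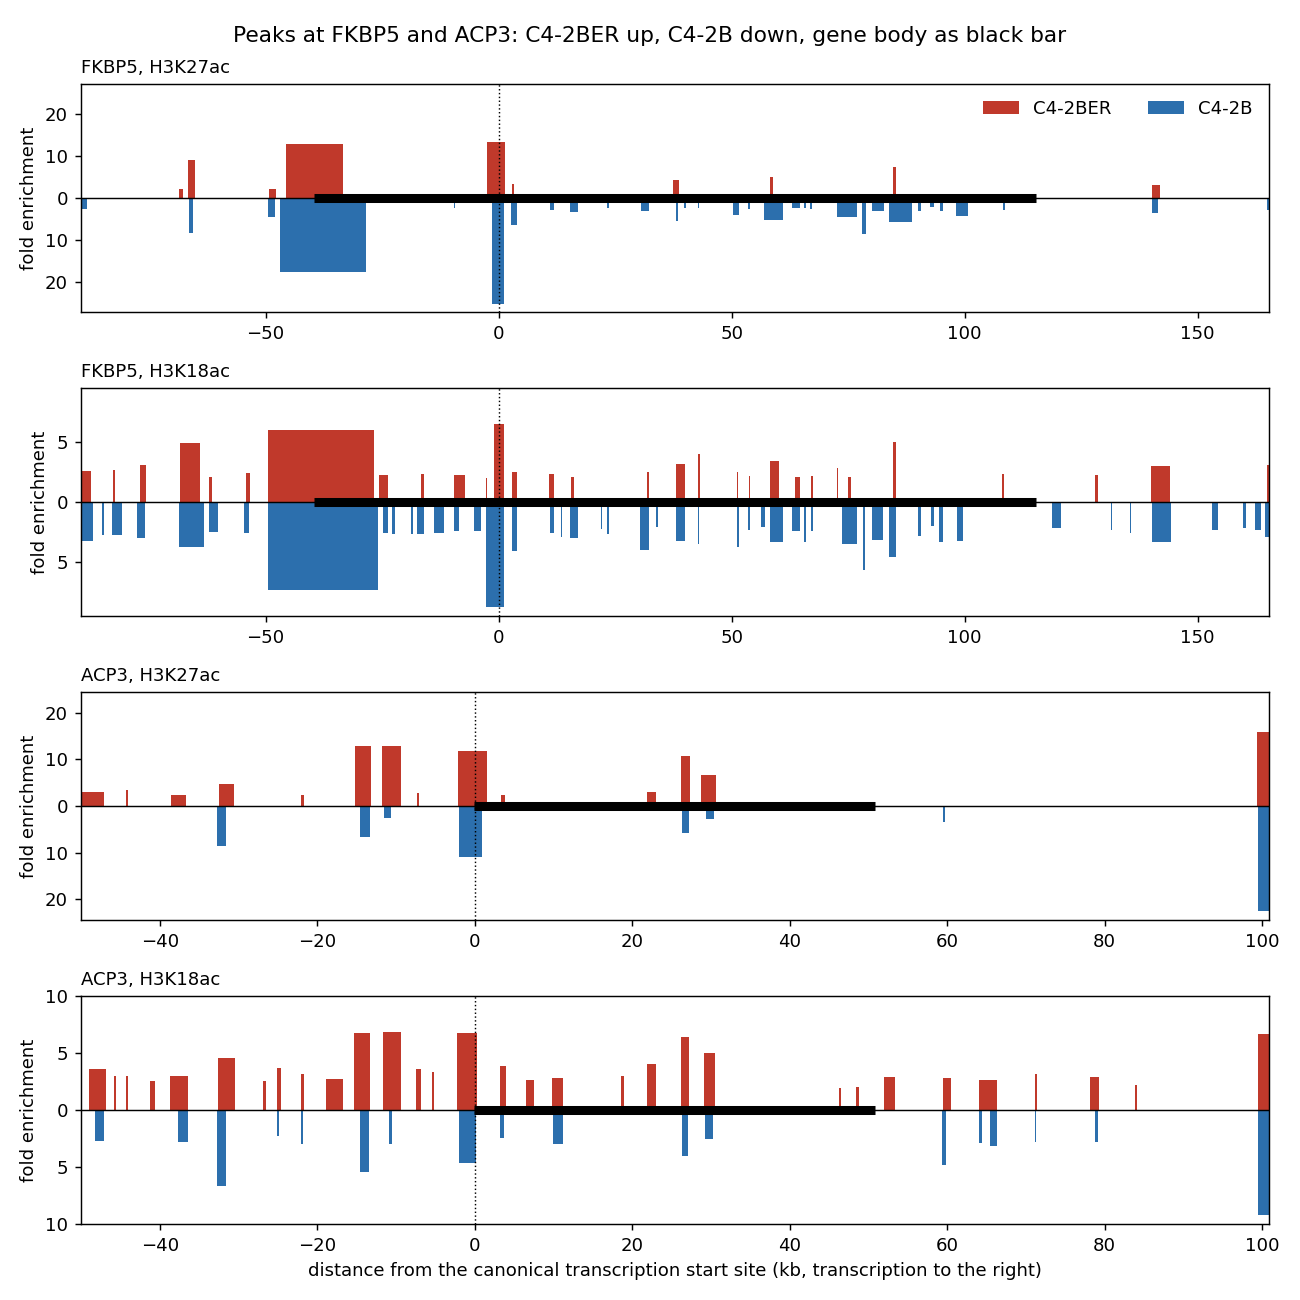
Peaks of both marks at FKBP5 and ACP3 by distance from the canonical TSS in kb (horizontal axis, transcription to the right) and fold enrichment (vertical axis). C4-2BER peaks point up, C4-2B peaks point down, the width of a bar is the width of the peak, and the black bar is the gene body. Downstream of the FKBP5 start most H3K27ac bars appear only below the line (C4-2B), and upstream of ACP3 bars of 12.9 and 12.8 stand above the line.

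ACP3 (ENSG00000014257, chr3:132317369-132368302, plus strand) showed the opposite change. Of 12 distal H3K27ac regions, 9 were increased and 1 was decreased, and of 26 distal H3K18ac regions, 14 were increased and none was decreased. Distal H3K27ac peaks covered 14.9 kb in C4-2BER and 4.4 kb in C4-2B, and H3K18ac peaks 26.8 kb and 8.8 kb. The region chr3:132305591-132308083, 9.3 to 11.8 kb upstream of the TSS, was 12.8-fold enriched for H3K27ac in C4-2BER and 2.58-fold in C4-2B, a log2 ratio of 2.31. Its H3K18ac was 6.80-fold and 3.02-fold. The adjacent region chr3:132302185-132304257 had the highest H3K27ac value of the distal regions, 12.9-fold in C4-2BER and 6.62-fold in C4-2B, just under the 2-fold limit. Of all H3K27ac peaks of C4-2BER, 91.1% and 91.2% were weaker than these regions.

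Weaker ACP3 regions appeared in C4-2BER only. The region chr3:132273150-132273433, 44 to 44.3 kb upstream, was 3.31-fold enriched for H3K27ac and 2.98-fold for H3K18ac in C4-2BER, with no peak of either mark in C4-2B. The region chr3:132339353-132340422 in intron 5 was 2.90-fold and 4.03-fold, again with no peak in C4-2B. In all, 4 of the 9 increased H3K27ac regions overlapped most with an increased H3K18ac region. The surroundings of ACP3 shared the direction. Of 37 H3K27ac regions from 50 kb to 1 Mb outside the gene body, 70.3% were increased, beside 75.0% of the distal regions of ACP3, and for H3K18ac the shares were 54.5% of 123 regions and 53.8%.

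SLC45A3 (chr1:205657851-205680509, minus strand) had as many decreased as increased distal H3K27ac regions. Of 11 distal H3K27ac regions, 3 were decreased and 3 increased, and of 15 H3K18ac regions none was decreased and 3 were increased. Its highest distal region, chr1:205692528-205706683 and 12 to 26.2 kb upstream, was 6.22-fold enriched for H3K27ac in C4-2BER and 10.6-fold in C4-2B. The log2 ratio of −0.77 did not reach the 2-fold limit. The H3K18ac values there were 5.01-fold and 5.68-fold. A neighbouring region, chr1:205711989-205714291, was 3.94-fold enriched for H3K27ac in C4-2BER and 9.07-fold in C4-2B, past the limit. Its H3K18ac, 2.97-fold and 4.56-fold, was not called. The region called in the same direction in both marks was a gain, chr1:205724321-205727229, at 3.10-fold for H3K27ac and 3.01-fold for H3K18ac in C4-2BER with no peak in C4-2B.

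PMEPA1 (chr20:57648392-57711536, minus strand) had less of its gene body under H3K27ac peaks in C4-2BER. Of 11 distal H3K27ac regions, 5 were decreased and none was increased, and of 13 H3K18ac regions 4 were decreased and none was increased. Its distal H3K27ac peaks covered 52.7 kb in C4-2B and 19.0 kb in C4-2BER, and its H3K18ac peaks 72.1 kb and 48.7 kb. The highest distal region, chr20:57751601-57767221 and 41.6 to 57.2 kb upstream, was kept at 9.02-fold in C4-2BER and 8.75-fold in C4-2B. The region absent from C4-2BER in both marks was chr20:57628546-57629158, downstream of the gene, with 2.62-fold for H3K27ac and 3.08-fold for H3K18ac in C4-2B. Regions around PMEPA1 had a like share of decreases. Of 114 H3K27ac regions from 50 kb to 1 Mb outside the gene body, 43.0% were decreased and 21.9% increased. Of the distal H3K27ac regions of PMEPA1, 45.5% were decreased. For H3K18ac, the decreased shares were 30.7% of 355 surrounding regions and 30.8% at PMEPA1, and 11.5% of the surrounding regions were increased.

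TMPRSS2 (chr21:41464300-41531116, minus strand) kept its acetylation. Of 11 distal H3K27ac regions, 2 were decreased and 2 increased, and the median log2 ratio of the 7 shared regions was −0.02. Of 11 H3K18ac regions, 1 was decreased and 3 were increased. The broad acetylated stretch upstream of the canonical TSS, which touches other annotated starts of TMPRSS2 and was therefore counted as promoter, was 11.7-fold enriched for H3K27ac over 20.6 kb in C4-2BER. In C4-2B the same stretch was covered by peaks of 11.2-fold over 12.5 kb, 20.8-fold over 3.04 kb and 2.58-fold over 0.39 kb. H3K18ac there was 6.96-fold in C4-2BER and 6.90-fold in C4-2B. The highest distal region, chr21:41566177-41569504, was 5.50-fold and 5.32-fold. The region called the same way in both marks, chr21:41483335-41484076 in intron 5, was a weak gain, with 2.29-fold for H3K27ac and 2.14-fold for H3K18ac in C4-2BER only.

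NDRG1 (chr8:133237175-133302022, minus strand) had 15 distal H3K27ac regions, of which 5 were decreased and 1 was increased, and 17 H3K18ac regions, of which none was decreased and 1 was increased. None was called the same way in both marks. Its highest distal region, chr8:133325917-133329189 and 28.7 to 31.9 kb upstream, was 10.6-fold enriched for H3K27ac in C4-2BER and 9.60-fold in C4-2B. In C4-2BER 72.4% of the locus lay under H3K18ac peaks, against 54.6% for C4-2B. The remaining match to the response element, 52.9 kb upstream of the TSS, lay under H3K18ac peaks of both lines, at 3.78-fold in C4-2BER and 4.05-fold in C4-2B, and under no H3K27ac peak.

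CAMKK2 (chr12:121237675-121298308, minus strand) had 16 distal H3K27ac regions, of which 6 were decreased and 3 increased, and 21 H3K18ac regions, of which 10 were decreased and 3 increased. The decreased regions were weak, with C4-2B values from 2.15 to 2.74 for H3K27ac. The 3 highest of those decreased in both marks were chr12:121290451-121291097 (2.74-fold), chr12:121327038-121327277 (2.58-fold) and chr12:121244403-121245699 (2.38-fold). Its highest distal region, chr12:121232186-121242533 at the end of the gene, was 9.27-fold enriched in C4-2BER and 6.66-fold in C4-2B.

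**Figure D5:**
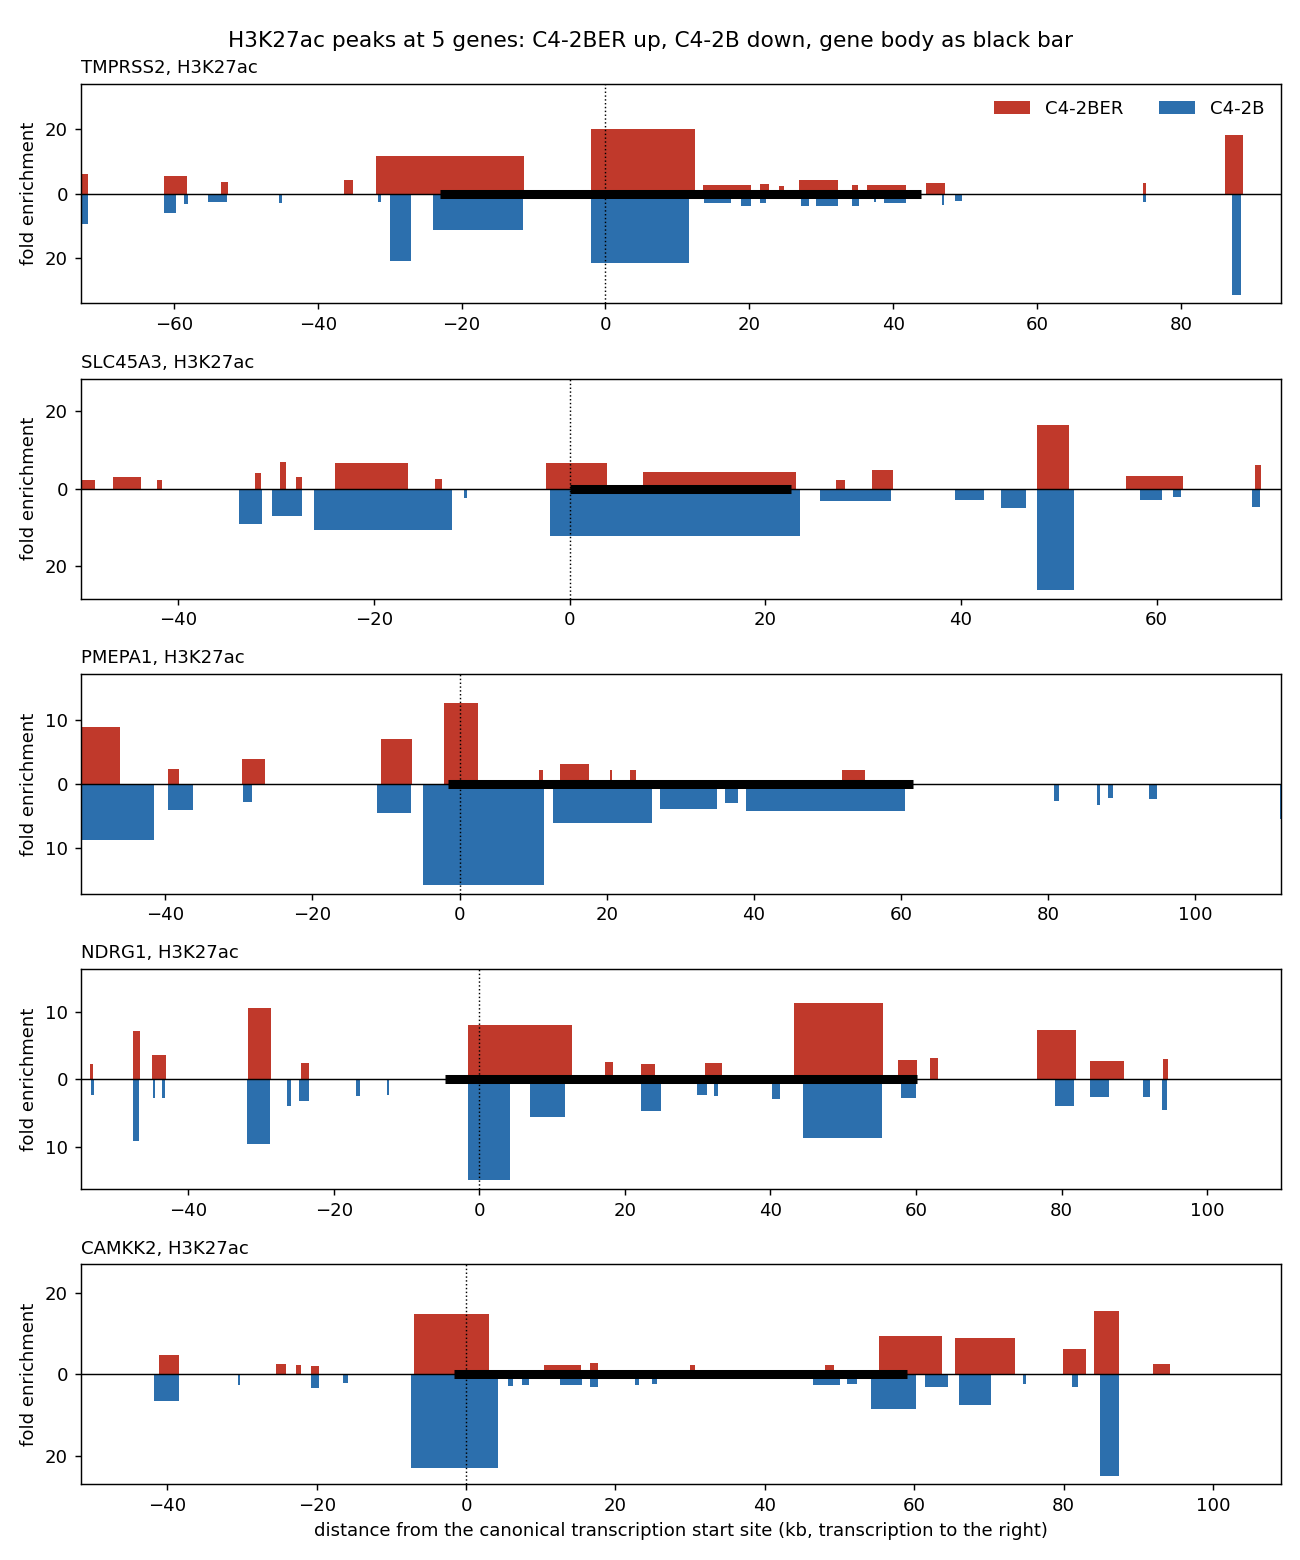
H3K27ac peaks at TMPRSS2, SLC45A3, PMEPA1, NDRG1 and CAMKK2 by distance from the canonical TSS in kb (horizontal axis) and fold enrichment (vertical axis), with C4-2BER up, C4-2B down and the gene body as a black bar. The peak over SLC45A3 is 25.5 kb wide in C4-2B, and most of the gene body of PMEPA1 is covered in C4-2B, whereas the strong peaks of TMPRSS2 stand on both sides.

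Motif content was counted in consecutive tiles of 300 bp across the distal H3K27ac regions. The androgen response element with at most 1 mismatch was found in 2 of the 796 tiles of the members, or 0.251%, and both were tiles of FKBP5. Over all distal H3K27ac regions within 50 kb of a protein-coding gene, 0.148% of 217520 tiles held a match. The forkhead motif TGTTTAC, searched on both strands, was found in 4.02% of the members' tiles and in 4.32% of all tiles. The RefSeq promoter table matched 5 of the 7 members by symbol, and no promoter of these 5 held the response element or the forkhead motif in its 300 bases, beside 0.165% and 3.42% of all promoters. A match is a run of letters, and whether the receptor binds there was not tested.

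The windows of 11 other protein-coding promoters lay in the 7 loci. For H3K27ac, 9 of them had a peak, 2 were decreased and none was increased, and for H3K18ac all 11 had a peak and none was called. Over all protein-coding promoters with a peak, 10.8% were decreased and 4.56% increased for H3K27ac, and 5.9% and 2.15% for H3K18ac. ARMC12, next to the far upstream start of FKBP5, had H3K27ac of 2.2-fold in C4-2BER and 17.6-fold in C4-2B, since the broad peak shared with FKBP5 reached its window in C4-2B only. ZBP1, downstream of PMEPA1, had a peak of 2.2-fold in C4-2B and none in C4-2BER.

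A list of 18 other androgen-responsive genes, KLK2 and KLK3 among them, was read at promoters in the same way. It stands for 19 gene entries, since HERC3 has 2. For H3K27ac, 18 entries had a peak and none was called decreased or increased. All 18 had the lower value in C4-2BER, as did 87.8% of all genes, and KLK2 and KLK3 had the same values. The median log2 ratio was −0.67, below the −0.51 over all genes, where the members' −0.41 lay above it. In H3K18ac, 16 of 17 entries with a peak in both lines were lower in C4-2BER, beside 84.9% of all genes. Their median was −0.50, against −0.33 over all genes. For H3K18ac, ACSL3, an acyl-CoA synthetase, was decreased (6.73-fold in C4-2BER, 16.5-fold in C4-2B), and C1orf116 was increased (5.75-fold in C4-2BER, no peak in C4-2B). ADAM7 had no peak in any list.

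Promoters of the receptor cofactors FOXA1, HOXB13 and GATA2 were called in neither mark. As a check of the cell type, the luminal markers KRT8, KRT18, HOXB13, FOLH1 and KLK3 had promoter peaks of both marks in both lines. Among neuroendocrine markers, ENO2, a neuronal enolase, was 14.2-fold enriched for H3K27ac in C4-2BER and 4.00-fold in C4-2B, and 4.33-fold and 4.06-fold for H3K18ac. CHGA, CHGB, INSM1 and NCAM1 had no H3K27ac promoter peak in either line. For H3K18ac, CHGB had a peak in C4-2B only (2.67-fold). CHGA was 2.29-fold enriched for H3K18ac in C4-2BER and 4.31-fold in C4-2B, INSM1 2.56-fold and 2.91-fold, and NCAM1 2.48-fold and 3.22-fold. Of the 6 listed neuroendocrine markers with an H3K18ac peak in both lines, 4 were lower and 2 higher in C4-2BER, all within the 2-fold limit.

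Among 14241 protein-coding genes with a promoter peak in all 4 lists, the genes most like FKBP5 in their 4 log2 promoter values were FCRLB, RFC2 and TRA2B, at Euclidean distances of 0.076, 0.086 and 0.091. The most like ACP3 were FAAH2, EGFL7 and LRRC3, at 0.151, 0.194 and 0.204.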

How the data were processed

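H3K27ac and H3K18ac were profiled in 2 libraries per mark and line. Per the labels, reads passed through bcl2fastq 2.17, Trimmomatic 0.33 and Bowtie2 2.2.3, and the methods give alignment to GRCh38, removal of blacklisted, low-quality and duplicate reads, merging of replicates and macs2, whose version and settings are not given in the sources used here. In the 4 deposited lists, fold enrichment is the authors' ratio of ChIP signal to local background, scaled within its own list. The −log10 q-value of each peak, also the authors' value, was used for a filter only.

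No peak passed the end of its GRCh38 chromosome. Overlapping peaks of the lines were merged, and a region took the length-weighted mean fold of its peaks. Genes came from GENCODE release 44. Members and lists were chosen with earlier results of these data known. Named were the members, other protein-coding promoters called changed in their loci, listed androgen-responsive genes called changed, and the markers. Per member, the distal region of highest H3K27ac and up to 3 called the same way in both marks were also named. So were the 3 promoters nearest to the members of lowest and highest H3K27ac ratio. The lncRNA promoters called changed in the loci are not named. The response element outside distal regions, peak widths, the wide TMPRSS2 stretch, an SLC45A3 region, the FKBP5 far start and the internal starts were added after their values were seen. Results were recomputed under 15 alternatives. Merging, calling, rescaling and the motif scan were tested on simulated data with Python 3.11.15, numpy 2.4.6 and pandas 2.3.3. Depth per library is unknown. Some genes of the lists are not reported here. The differential peaks and other data types of the study were not used here.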

Additional observations from a re-analysis of the deposited data

How the results depend on the processing

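No member promoter was called in opposite directions by 2 settings. With a ratio of 1.5 as the limit, 3 H3K27ac promoters (FKBP5, SLC45A3 and CAMKK2) were decreased, and with the overlap-weighted mean of the promoter peaks 1 was decreased (SLC45A3, log2 ratio −1.14). A line fitted over shared regions moved the H3K27ac median of all promoters from −0.51 to −0.11, and 4 of 7 members stayed below 0 (TMPRSS2 turned to 0.38 and PMEPA1 to 0.08). Among distal regions, peaks of at least 4-fold left 11 of 34 decreased and 6 increased for H3K27ac. For H3K18ac they left 10 of 26 decreased and 6 increased. A −log10 q of at least 5 left 15 of 55 H3K27ac and 19 of 64 H3K18ac regions decreased. Beside them 16 and 22 were increased, so decreased regions no longer outnumbered increased ones. Shares over all genes are not given under these filters. Flanks of 20 kb gave 34 of 65 H3K27ac regions decreased and 9 increased. For H3K18ac they gave 27 of 94 decreased and 16 increased. Flanks of 100 kb gave 52 of 146 H3K27ac regions decreased and 41 increased. For H3K18ac they gave 48 of 232 decreased and 51 increased, so decreased regions no longer outnumbered increased ones. No share over all genes is given for these flanks. Leaving out FKBP5, chosen after seeing the data, left 22 and 15 decreased regions, and leaving out ACP3 left 10 and 13 increased. At most 2 mismatches gave 17 tiles with a response element (2.14%, beside 1.73% of all tiles) in place of 2. The direction held for FKBP5 (more decreased) and ACP3 (more increased) in both marks in all 16 settings. PMEPA1 had more decreased regions in 16 settings for H3K27ac and 15 for H3K18ac, and CAMKK2 in 14 and 16. NDRG1 had more decreased H3K27ac regions in 14 settings and more increased H3K18ac regions in 12. TMPRSS2 and SLC45A3 had more increased H3K18ac regions in 13 and 14 settings, with no steady direction for H3K27ac. The settings reuse many of the same few regions. In the main setting the increased H3K18ac regions were 1 of 17 at NDRG1, 3 of 11 at TMPRSS2 and 3 of 15 at SLC45A3. Each share was below that over all genes. With peaks of at least 4-fold, NDRG1 had 3 decreased H3K18ac regions and 1 increased, and SLC45A3 had 2 decreased and none increased. At FKBP5, 5 of 8 H3K27ac regions were decreased with peaks of at least 4-fold and 4 of 9 with a −log10 q of at least 5. No paired analysis was possible because peaks were called on merged libraries, and for the same reason no replicate could be left out.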

Other observations

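Looser matches to the androgen response element, with 2 mismatches allowed, were found in 2.14% of the 796 tiles of 300 bp across the members' distal H3K27ac regions, near the 1.73% over all 217520 tiles. Of 43 such matches under a peak region of either mark, 12 were at TMPRSS2, 10 at FKBP5, 9 at NDRG1, 4 each at SLC45A3 and CAMKK2, 3 at PMEPA1 and 1 at ACP3. An H3K27ac peak lay over 25 of the 43 in C4-2BER and over 26 in C4-2B, and an H3K18ac peak over 35 and 33. The ACP3 match, chr3:132267748-132267762, lay 49.6 kb upstream of the TSS in an H3K27ac peak of 3.07-fold found in C4-2BER only. It is shown on the plus strand of GRCh38 from 132267708 to 132267802, with the match in capitals.
ACP3 upstream match with 2 mismatches: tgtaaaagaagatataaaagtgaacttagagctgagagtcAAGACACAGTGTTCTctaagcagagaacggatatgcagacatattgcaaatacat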
